A study of Arabidopsis thaliana with 12 samples.

Results

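The response of *arf2-6* seedlings to auxin was read from 6 *Arabidopsis thaliana* arrays, 3 of seedlings given the natural auxin indole-3-acetic acid (IAA) and 3 of seedlings given the solvent ethanol. The *arf2-6* line carries a mutation of *ARF2* in the Columbia background, and the labels say nothing more about the allele. Whole seedlings grew for 7 days in shaken liquid Murashige and Skoog medium, which held 1.5% sucrose, on a cycle of 16 h light and 8 h dark. They were then exposed to 5 µM IAA or to ethanol for 2 h at 24 °C. Columbia wild-type seedlings were grown and treated alike, with 3 arrays for each treatment. Their values are given only beside those of *arf2-6*. Their arrays also entered the filter and the shared estimate of spread behind every SE and p-value given for *arf2-6*. Whether replicates came from separate cultures is not stated in the labels, and p-values cover only the spread between these arrays, part or all of which may be technical. A probe set, the group of short probes that reads 1 transcript or a few similar ones, was described where its value lay above the lowest deposited value on at least 3 of the 6 *arf2-6* arrays. This held for 13238 of 22810 probe sets, or 58.2% of the 22746 that were not array controls. The lowest deposited value is 5.64 on the log2 scale, a signal of 50, and a value at it is only an upper limit of the true signal. Differences against a group with such arrays are therefore written as at least N-fold. A group with all 3 arrays at it has a spread of 0, so the standard error (SE) and p-value of such genes may be too small.

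Auxin enters the nucleus, joins its TIR1 and AFB receptors to Aux/IAA repressor proteins and causes those repressors to be degraded. Auxin response factors (ARFs), the DNA-binding proteins that the repressors hold back, can then act on genes such as *GH3*, *Aux/IAA* and *SAUR*, whose transcripts are known to rise soon after auxin is given. *ARF2* encodes an ARF of the class that represses transcription and is known for its part in growth, seed size and senescence. In seedlings auxin is best known for cell elongation in the shoot and for the start of lateral roots.

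Of the 14215 probe sets tested, 1210 (8.51%) differed between IAA and control in *arf2-6*. The test was limma's moderated test on log2 signals with p-values adjusted by Benjamini and Hochberg's method, and probe sets with an adjusted p under 0.05 are called. Higher with IAA were 533 (3.75%) and lower were 677 (4.76%), and 2763 had an unadjusted p under 0.05. Every call was among the 13238 described probe sets, all of which were tested. In 1209 of the 1210 the 3 IAA arrays lay wholly beyond the 3 control arrays, as they did in 26.6% of all tested probe sets. The group means of all described probe sets are drawn in the plot of control against IAA levels.

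**Figure D1:**
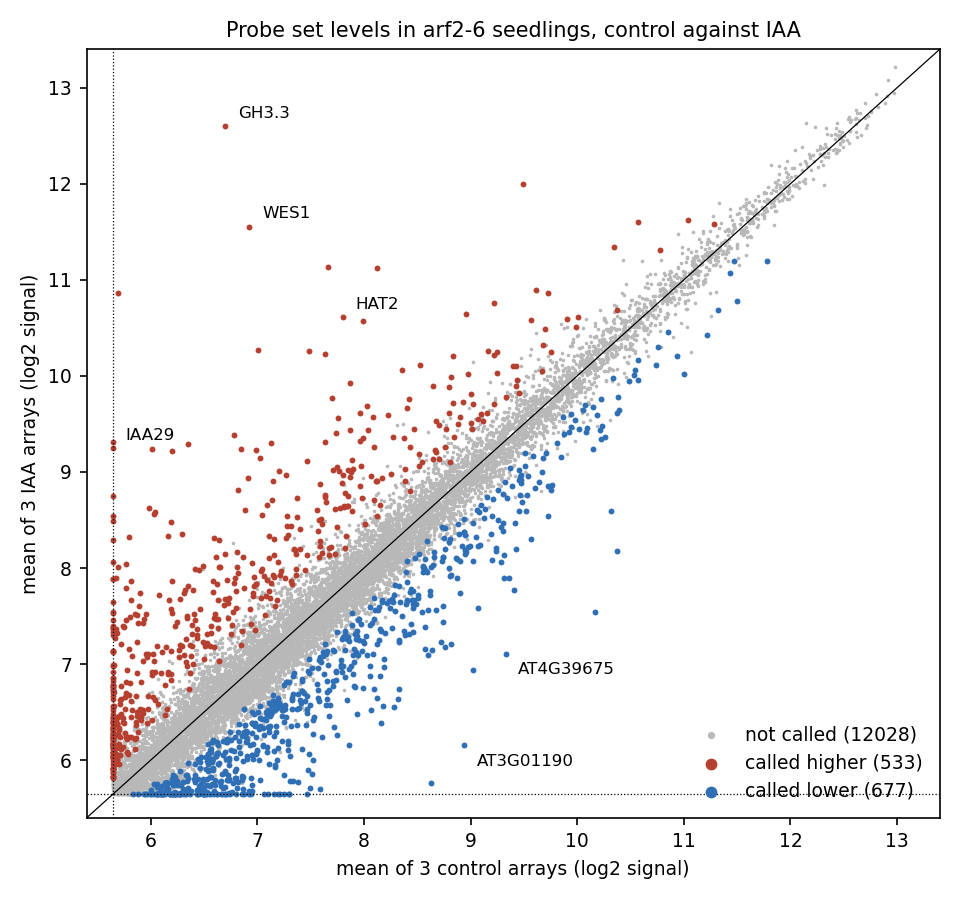
Mean log2 signal of 13238 probe sets on the 3 *arf2-6* control arrays (x axis) and the 3 IAA arrays (y axis), with the diagonal of equal levels and dotted lines at the lowest deposited value of 5.64. The 533 probe sets called higher (red) reach farther from the diagonal than the 677 called lower (blue), and *GH3.3* lies farthest of all.

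Fewer probe sets rose than fell, except without arf2-6_IAA replicate 3, when 385 rose and 371 fell. With arf2-6_control replicate 2 left out as well, 333 rose and 269 fell. The median log2 difference was 0.85 among the probe sets that rose and -0.69 among those that fell, against -0.02 over all described probe sets. At least 2-fold differences numbered 209 upward and 128 downward, at least 4-fold differences 44 and 6, and at least 8-fold differences 11 and 0. Above the lowest value on all 3 IAA arrays and on no control array lay 138 probe sets, of which 94 were called higher. The opposite pattern held for 166 probe sets, of which 73 were called lower. Both kinds were described only through the group where they were high, a choice that favours calls (68.1% and 44.0% called). The same limit holds for every described gene below with all 3 control arrays, or all 3 IAA arrays, at the lowest value. Among the 11929 probe sets above the lowest value on all 6 arrays, 352 rose and 525 fell. Just inside the limit for description, 446 probe sets lay above the lowest value on exactly 3 arrays, with a median of 6.12 log2 for their highest array, and just outside it 256 lay there on exactly 2, with a median of 5.87.

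The arrays held 12914 to 13055 probe sets above the lowest value each, with medians of 6.16 to 6.22 log2. In a principal component analysis of the described probe sets over these 6 arrays, the first component (60.0% of the variance) had scores of -35.74 to -13.63 for the controls and 19.95 to 23.55 for the IAA arrays. The second (22.3%) set arf2-6_control replicate 2 apart, at 21.84 against -19.08 and -15.67 for the other controls and 2.45 to 5.48 for the IAA arrays. That array also deviated most from its group mean (SD over probe sets 0.258, against 0.113 to 0.178 on the other arrays) and had the largest mean excess of 3′ over 5′ control probe signal, 0.67 log2 against 0.42 to 0.51. Without it 963 probe sets were called, 449 higher and 514 lower, and 867 of them were among the 1210. Without arf2-6_IAA replicate 3 the count was 756 (385 higher and 371 lower, 748 shared), and without both arrays it was 602 (333 and 269, 566 shared). arf2-6_IAA replicate 3 did not stand apart in these measures and is left out with the other only because the count fell most without it. The part of that array's RNA quality in any result was not tested.

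The largest measured rise was that of *GH3.3*, a gene of auxin inactivation, though rises from the lowest value are lower bounds and may be larger. The *GH3* genes encode amido synthetases that join IAA to amino acids. *GH3.3* measured 7.43, 6.18 and 6.49 log2 on the control arrays and 12.56, 12.61 and 12.62 on the IAA arrays. The treated values lay within 0.1 of each other and far above the scattered controls, a 59.6-fold rise (log2 5.90, SE 0.32, adjusted p = 7.6e-07). *WES1*, which is also known as *GH3.5*, went from 6.98, 6.29 and 7.50 to 11.39, 11.62 and 11.66 log2, a 24.7-fold rise (log2 4.63, SE 0.37, adjusted p = 1.6e-05). *GH3.1* was at the lowest value on every control array and at 8.37, 8.54 and 8.71 log2 with IAA, so it rose at least 7.44-fold (adjusted p = 4.1e-08). *GH3.17* differed by 0.10 log2 (SE 0.18, adjusted p = 0.82), with overlapping arrays between 7.68 and 8.02. Thus 3 of 4 tested *GH3* genes rose, against 3.75% of all tested probe sets, and the same count held when any 1 of the 12 arrays was left out. *GH3.1* was described only through its IAA arrays. The gene lists used here and below were drawn up with earlier results of these data known. The share of a list that was called therefore describes the list and tests nothing.

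*IAGLU*, a glucosyltransferase that esterifies IAA with glucose, rose as well. It was picked after its values had been seen. Its controls lay at 8.21, 7.37 and 7.68 log2 and its IAA arrays at 9.74, 9.42 and 9.52, a 3.49-fold rise (SE 0.25 log2, adjusted p = 7.9e-04). *AT1G14120*, the locus next to and related to the IAA oxidase gene *AT1G14130*, moved the other way. It fell from 6.97, 7.12 and 6.51 log2 to 5.82 on 1 IAA array and the lowest value on the other 2, at least 2.24-fold (adjusted p = 0.0011). *AT1G14130* itself measured -0.27 log2 (SE 0.16, adjusted p = 0.38), with an IAA array inside the range of the controls. Of 3 tested genes of auxin synthesis and breakdown, *AT1G14120* was the 1 that was called, against 8.51% of all tested probe sets.

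Aux/IAA repressor genes were the next group to rise, 3 of 4 tested, against 3.75% of all tested probe sets. The list held 29 genes and 7 single-gene probe sets, and *IAA29* and *IAA30* were described only through their IAA arrays. *IAA29* lay at the lowest value on all 3 controls and at 9.14, 9.26 and 9.33 log2 with IAA, a rise of at least 12.1-fold (SE 0.10 log2, adjusted p = 5.4e-09). *IAA30*, likewise at the lowest value in the controls, reached 6.47, 6.75 and 6.78 log2, at least 2.03-fold higher (adjusted p = 0.0011). *IAA20* read 5.84, 5.64 and 5.69 log2 in the controls, 1 of them at the lowest value, and 7.45, 6.78 and 7.41 with IAA, at least 2.81-fold higher (adjusted p = 6.1e-05). *IAA18* started at 7.72 to 7.77 log2 and read 7.84, 8.28 and 7.93 with IAA. Its arrays did not overlap, yet the difference of 0.27 log2 (SE 0.15) did not pass the test (adjusted p = 0.38). The count of 3 held with any 1 array left out.

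A *SAUR* gene and a kinase gene rose as well, and both were described only through their IAA arrays. *AT2G18010* is *SAUR10*, of the small auxin-up RNA family linked to cell elongation, and was the 1 tested *SAUR* gene. It rose from the lowest value on all controls to 6.89, 6.77 and 6.68 log2, at least 2.19-fold (adjusted p = 2.5e-06). *WAG2*, which encodes a protein kinase that directs auxin efflux carriers, rose from the lowest value to 6.54, 6.27 and 6.37 log2, at least 1.68-fold (adjusted p = 0.012). The *WAG2* call was lost without arf2-6_IAA replicate 1 (adjusted p = 0.055) and without arf2-6_control 2 and arf2-6_IAA 3 together (adjusted p = 0.11).

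The lateral root and patterning regulators had 3 of 5 tested genes higher, against 3.75% of all tested probe sets. The list held 30 genes, and the count stayed at 3 with any 1 array left out. Of the 3, *LBD29* was described only through its IAA arrays. *LBD29* and *LBD16* encode LOB-domain transcription factors that act downstream of activating ARFs when lateral roots are founded. *LBD29* went from the lowest value on all controls to 8.12, 8.78 and 8.58 log2, at least 7.21-fold (SE 0.16 log2, adjusted p = 8.8e-07). *LBD16* was at the lowest value on 2 controls and at 5.72 log2 on the other, and reached 7.37, 7.37 and 7.08 with IAA, at least 3.04-fold higher (adjusted p = 5.4e-06). *HAT2*, a homeodomain-leucine zipper gene known to be induced by auxin, was well above the lowest value in the controls (8.04, 7.87 and 7.50 log2) and rose 7.02-fold to 10.66, 10.52 and 10.66 (SE 0.14 log2, adjusted p = 4.5e-07). *SHI*, a regulator of organ patterning, differed by 0.16 log2 (adjusted p = 0.45). *PUCHI*, which helps to pattern lateral root primordia, lay above the lowest value on only 2 of the 6 arrays, both of them IAA arrays, and so fell outside the described probe sets (0.14 log2, adjusted p = 0.33). In the wild type *PUCHI* rose by at least 1.01 log2 from the lowest value on all controls. The limma test of a difference between the genotypes' responses called it (interaction -0.87 log2, SE 0.11, adjusted p = 0.023). All controls of both genotypes and 1 *arf2-6* IAA array lay at the lowest value, so this size is a fitted value. Whether the call holds with arrays left out was not followed.

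**Figure D2:**
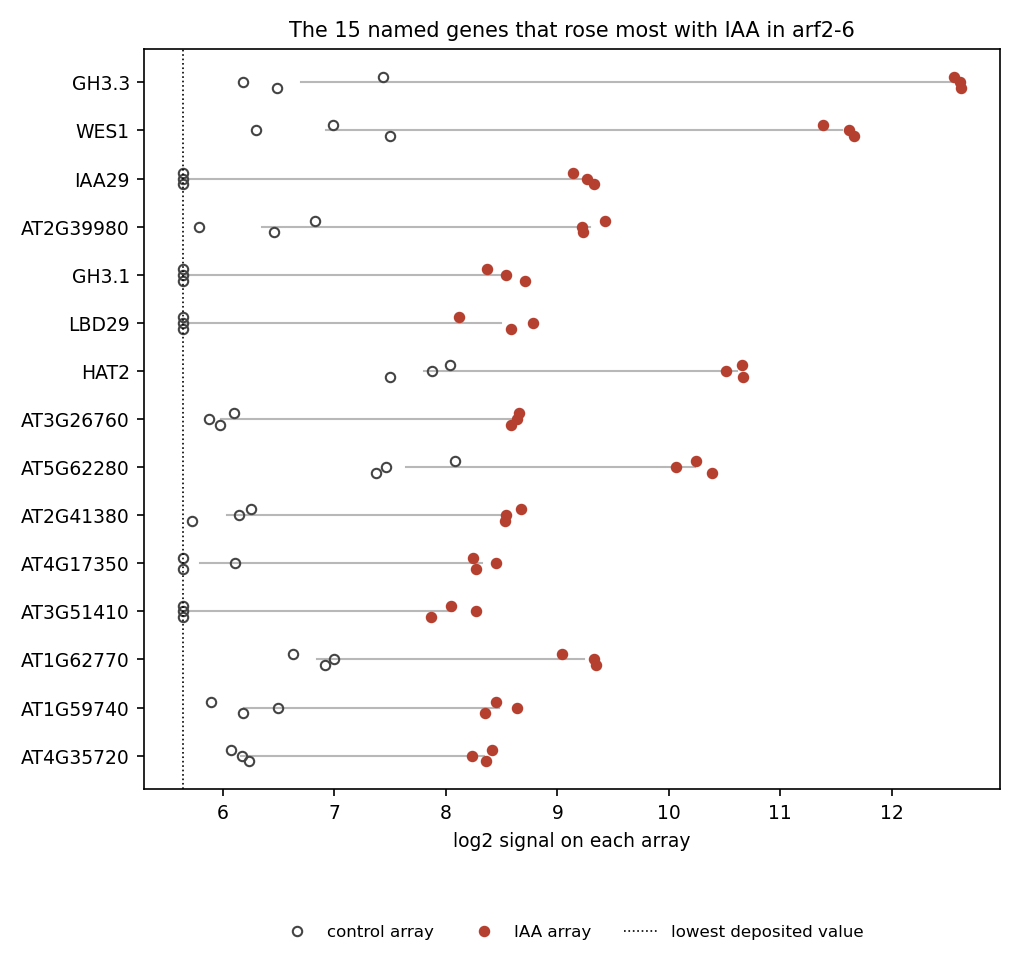
Log2 signal on each *arf2-6* array for the 15 single genes that rose most, with 3 control arrays (open circles), 3 IAA arrays (red) and a grey line between the group means. The dotted line marks the lowest deposited value, where all 3 controls of *IAA29*, *GH3.1*, *LBD29* and *AT3G51410* lie, and no gene has overlapping groups.

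The 15 largest rises, shown array by array in the plot of rising genes, also held 9 loci without a gene name in the annotation. *AT2G39980*, of the plant acyltransferase family, rose 7.67-fold from 6.82, 5.78 and 6.46 to 9.43, 9.22 and 9.23 log2 (adjusted p = 1.2e-05). *AT1G62770*, of the family of pectin methylesterase or invertase inhibitors, rose 5.25-fold from 6.63, 7.00 and 6.92 to 9.04, 9.33 and 9.35 log2 (adjusted p = 5.7e-07). *AT1G59740*, of the nitrate and peptide transporter family, rose 4.89-fold from 5.90, 6.49 and 6.18 to 8.45, 8.64 and 8.35 log2 (adjusted p = 2.1e-05). In each of these the lowest IAA array exceeded the highest control by over 1.5 log2. Gene names and loci are those of the annotation, while the roles and families given here are general knowledge and come from no file of the series. The other 6, *AT3G26760*, *AT5G62280*, *AT2G41380*, *AT4G17350*, *AT3G51410* and *AT4G35720*, rose by 2.18 to 2.64 log2, which for *AT4G17350* and *AT3G51410* is a lower bound.

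Genes of other growth hormones were few among the tested probe sets. In the ethylene group, a list of 26 genes, 2 of 3 tested rose, against 3.75% of all tested probe sets. *ARL*, a relative of the organ size gene *ARGOS*, rose 3.26-fold, from 8.64, 8.54 and 7.89 to 9.93, 10.08 and 10.18 log2 (SE 0.23, adjusted p = 6.1e-04). *RTE1*, whose protein acts on the ethylene receptor ETR1, rose 1.85-fold from 7.57 to 7.88 log2 in the controls to 8.54 to 8.66 with IAA (adjusted p = 3.1e-04). *EIN3*, the transcription factor at the end of the ethylene pathway, differed by 0.22 log2 (adjusted p = 0.64).

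The 1 tested gene of the brassinosteroid group, *EXO*, a brassinosteroid-responsive gene needed for leaf growth, read 8.65, 8.81 and 9.04 log2 in the controls and 10.17, 10.18 and 10.26 with IAA. This was a 2.59-fold rise (SE 0.16 log2, adjusted p = 2.8e-04). Another 2 genes tied to this hormone were picked after their values had been seen. *BAT1*, an acyltransferase gene that lowers active brassinosteroid, rose 2.07-fold from 7.41 to 7.69 log2 to 8.55 to 8.65 (adjusted p = 2.9e-04). *BRH1*, a RING finger gene that responds to brassinosteroid, rose 1.85-fold to 9.68 to 9.79 log2 (adjusted p = 0.0054). All 3 lay above every control on every IAA array.

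Among wall-loosening genes, expansins and xyloglucan endotransglucosylases (XTH), 5 of 14 tested members rose and 3 fell. This is 57.1% called, against 8.51% over all tested probe sets, and the median of the 14 was 0.12 log2. *EXPA4*, an alpha-expansin, rose 2.91-fold from 9.67, 8.80 and 9.18 to 10.80, 10.79 and 10.69 log2 (SE 0.21, adjusted p = 7.5e-04). *XTH19* rose 2.96-fold from 7.79, 8.18 and 7.63 to 9.20, 9.49 and 9.61 log2 (adjusted p = 6.0e-04), and *XTH18* rose 2.19-fold (adjusted p = 5.7e-04). The treated arrays of these 3 genes stood clear of the controls. Smaller rises were those of *EXPA20* (0.54 log2) and *XTH33* (at least 1.70-fold). Falling were *XTH32*, from 8.82 to 9.02 log2 to 7.82 to 8.29 (log2 -0.83, adjusted p = 0.0014), and *EXPB1* and *XTH26*, which both reached the lowest value on all 3 IAA arrays (at least 1.47-fold and at least 1.80-fold lower). With any 1 array left out, 4 or 5 rose and 2 or 3 fell.

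Other wall genes also moved in both directions. The endoglucanase genes *GH9B13* and *GH9C2*, of the family that cuts cellulose chains, rose 2.40-fold (6.94, 7.63 and 7.27 to 8.57, 8.49 and 8.57 log2, adjusted p = 0.0022) and 1.59-fold (adjusted p = 0.010). They were the 2 called of 6 tested glycosyl hydrolases, against 3.75% of all tested probe sets called higher. The pectin methylesterase gene *ATPMEPCRB* rose 1.88-fold (adjusted p = 0.0063). *CSLA03*, of the cellulose synthase-like family that makes mannan, fell by 0.85 log2, from 7.19, 7.18 and 7.40 to 6.56, 6.12 and 6.53 (adjusted p = 0.0080). It was picked after its values had been seen. The *TBL* genes, related to the enzymes that acetylate wall polysaccharides, were grouped after results had been seen. Of 14 tested 4 fell (28.6%, against 4.76% of all tested probe sets) and none rose, at a median of -0.20 log2 over the 12 described. *TBL25* fell by 0.79 log2 (8.68, 8.83 and 8.88 to 7.87, 8.19 and 7.95, adjusted p = 6.8e-04) and *TBL45* by 0.90 (adjusted p = 0.0027). The *TBL* count dropped to 2 without arf2-6_control replicate 2 or without arf2-6_IAA replicate 3, and to 1, *TBL25*, without both, when *TBL45* had an adjusted p of 0.057. The *GH9C2* call was lost in that case too (adjusted p = 0.11).

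The largest measured fall of any single gene was that of a class III peroxidase, a family of secreted enzymes that cross-link or loosen wall polymers. Falls to the lowest value are lower bounds. *AT3G01190* read 8.66, 9.32 and 8.84 log2 in the controls and 6.33, 6.05 and 6.10 with IAA, 6.86-fold lower (log2 -2.78, SE 0.17, adjusted p = 2.0e-06). *AT4G30170* followed, from 10.23, 10.44 and 10.28 to 8.51, 8.86 and 8.42 log2 (3.3-fold, SE 0.14 log2, adjusted p = 2.1e-05). Both were separated from their controls by more than 1.3 log2 at the nearest arrays. Among 37 tested peroxidases, listed by locus after results had been seen, 6 fell (16.2%, against 4.76% of all tested probe sets) and 3 rose (8.11%, against 3.75%), and the median of the 34 described was -0.11 log2. Also lower were *AT3G21770* (log2 -0.93, adjusted p = 0.0019) and *AT2G37130* (log2 -0.66, adjusted p = 0.0026). Higher were *AT5G39580*, from the lowest value to 7.39, 7.22 and 7.51 log2 (at least 3.31-fold, adjusted p = 1.4e-05), and *AT5G64100*, from 10.31 to 10.38 log2 to 11.14 to 11.45 (adjusted p = 0.0049). Without arf2-6_control replicate 2, or without arf2-6_IAA replicate 3, 4 fell and 3 rose, and without both 4 fell and 1 rose, *AT5G64100* then having an adjusted p of 0.084.

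**Figure D3:**
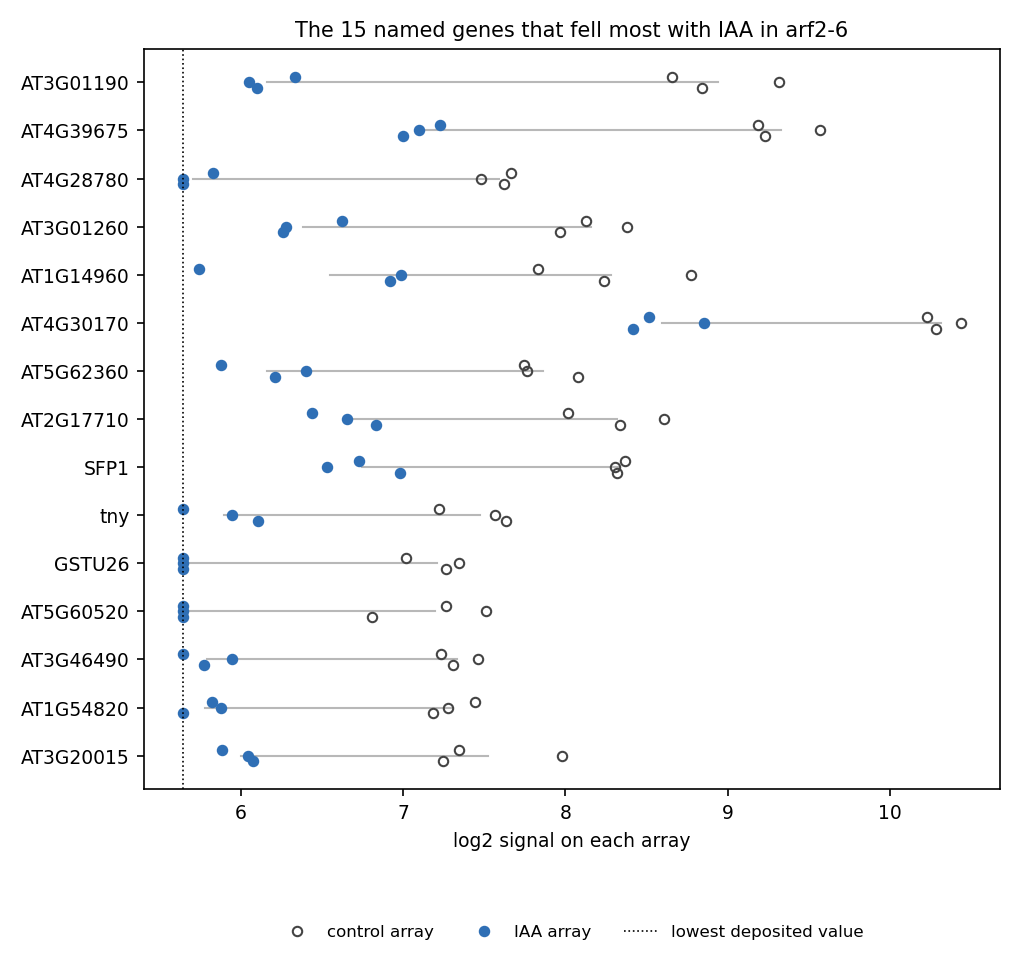
Log2 signal on each *arf2-6* array for the 15 single genes that fell most, with 3 control arrays (open circles), 3 IAA arrays (blue) and a grey line between the group means. All 3 IAA arrays of *GSTU26* and *AT5G60520* lie on the dotted line of the lowest deposited value, and no gene has overlapping groups.

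Other loci among the 15 largest falls, drawn in the plot of falling genes, came from several families. *AT4G39675*, which has no gene name in the annotation, fell 4.66-fold from 9.19, 9.57 and 9.23 to 7.23, 7.10 and 7.00 log2 (adjusted p = 9.7e-06). *AT4G28780*, of the GDSL lipase family, dropped from 7.66, 7.48 and 7.62 log2 to 5.83 on 1 array and the lowest value on 2, at least 3.69-fold (adjusted p = 4.5e-05). *AT5G62360*, an inhibitor relative of the same family as the rising *AT1G62770*, fell 3.25-fold from 7.74, 7.76 and 8.08 to 5.88, 6.4 and 6.21 log2 (adjusted p = 2.1e-04). *AT1G14960*, of the major latex protein family, fell 3.32-fold with the widest spread of these genes, from 7.83, 8.77 and 8.24 to 5.74, 6.99 and 6.92 log2 (adjusted p = 0.0061). A fit of the 6 *arf2-6* arrays alone gave it an adjusted p of 0.088. *tny*, an AP2/ERF transcription factor gene known for growth restraint when overexpressed, fell at least 2.98-fold (adjusted p = 4.1e-04).

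Among sugar carriers, 4 genes of the SFP and SWEET families were lower with IAA. *SFP1*, of the monosaccharide transporter family, read 8.37, 8.30 and 8.32 log2 in the controls and 6.73, 6.53 and 6.98 with IAA, 3.00-fold lower (SE 0.13 log2, adjusted p = 2.1e-05). Its neighbour *SFP2* fell by 0.93 log2, from 7.18, 6.71 and 7.08 to 5.89, 6.05 and 6.24 (adjusted p = 0.0020). The SWEET genes encode bidirectional sugar carriers, and 2 of 5 tested fell, against 4.76% of all tested probe sets. *SWEET17*, a fructose carrier of the vacuole, went from 7.81, 7.93 and 7.74 to 6.69, 7.09 and 6.8 log2 (1.95-fold lower, adjusted p = 6.4e-04), and *SWEET2* fell by 0.82 log2 (adjusted p = 0.0075). The median of the 5 was -0.68 log2. *SWEET2* was not called without arf2-6_control 2 and arf2-6_IAA 3 together (adjusted p = 0.078). *cwINV6*, a gene of the invertase family that cleaves fructans, rose at least 1.32-fold from the lowest value on all controls (adjusted p = 0.012). Both families and *cwINV6* were chosen after results had been seen.

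Glutathione S-transferases of the tau class, likewise grouped afterwards, are enzymes of detoxification and small-molecule transport, and 4 of 9 tested members were lower (44.4%, against 4.76% of all tested probe sets) and 1 higher. *GSTU26* fell from 7.02, 7.34 and 7.26 log2 to the lowest value on all 3 IAA arrays, at least 2.96-fold (adjusted p = 7.0e-05). *GSTU27* fell 2.26-fold from 9.21, 9.57 and 9.17 to 8.10, 8.24 and 8.06 log2 (SE 0.12, adjusted p = 8.9e-05). *GSTU28* fell at least 1.73-fold, with 2 IAA arrays at the lowest value, *GSTU18* fell by 0.89 log2, and *GSTU16* rose by 0.65 (adjusted p = 0.012). *GSTU18* was not called without arf2-6_IAA replicate 3 (adjusted p = 0.050), and the family count ranged over 3 or 4 lower and 0 to 2 higher with any 1 array left out.

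The glucosinolate group, genes of the sulfur-rich defence compounds of the cabbage family, had 4 of 7 tested members lower (57.1%, against 4.76% of all tested probe sets) and none higher. The members were listed after results had been seen, and their median was -0.47 log2. *UGT74B1*, which adds the glucose of the core structure, fell from 9.10, 9.50 and 9.25 to 8.50, 8.51 and 8.29 log2 (log2 -0.85, SE 0.11, adjusted p = 5.4e-04). *AOP1*, of the side-chain oxygenase family, went from 6.49, 6.91 and 6.46 log2 to the lowest value on all IAA arrays, at least 1.97-fold (adjusted p = 8.8e-04). *GTR2*, a glucosinolate importer of the phloem, fell by 0.49 log2 (8.77, 8.50 and 8.70 to 8.22, 8.09 and 8.21, adjusted p = 0.0080). *BCAT4*, which starts the chain elongation of methionine, fell by 0.39 log2 from 10.89, 10.96 and 10.71 to 10.51, 10.45 and 10.42 (adjusted p = 0.017). Its call was lost in 4 of the 12 fits that left out 1 array, those without arf2-6_control 1, arf2-6_control 2, arf2-6_IAA 2 or arf2-6_IAA 3 (adjusted p up to 0.073). The importer *GTR1* measured -0.47 log2 (SE 0.18, adjusted p = 0.16).

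A pair of genes of methionine metabolism, *HMT-1* and *MGL*, was picked after the values had been seen. *HMT-1*, which makes methionine by transferring a methyl group to homocysteine, rose 2.38-fold from 7.74, 7.92 and 7.63 to 9.02, 8.98 and 9.03 log2 (SE 0.11, adjusted p = 4.1e-05). *MGL*, which breaks methionine down, rose 2.25-fold from 6.34, 6.30 and 6.05 to 7.59, 7.16 and 7.46 log2 (adjusted p = 0.0040), but had an adjusted p of 0.057 without arf2-6_control 2 and arf2-6_IAA 3 together. Of 4 tested methionine sulfoxide reductases of the B type, which repair oxidised methionine in proteins, *MSRB6* fell by 0.98 log2 (8.19, 7.90 and 8.17 to 7.31, 7.09 and 6.9, adjusted p = 4.1e-04). *MSRB5* fell by 0.77 log2 (9.46, 9.80 and 9.56 to 8.91, 8.94 and 8.65, adjusted p = 9.8e-04). The other 2 were not called, so 2 of 4 fell, against 4.76% of all tested probe sets. This family was grouped after results had been seen.

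A pair of closely related peptide genes, picked after their values had been seen, moved in opposite directions. Of 3 tested *CLE* genes 1 rose and 1 fell (33.3% each, against 3.75% and 4.76% of all tested probe sets). *CLE41* and *CLE44* encode the peptide TDIF, a signal from the phloem that keeps vascular stem cells dividing. *CLE44* lay at the lowest value on all controls and at 6.18, 6.35 and 6.45 log2 with IAA (at least 1.60-fold higher, adjusted p = 1.3e-04). *CLE41* fell by 0.62 log2 from 7.87, 7.98 and 7.73 to 7.23, 7.41 and 7.09 (SE 0.11, adjusted p = 0.0057). The *CLE41* call was lost without arf2-6_control 2 and arf2-6_IAA 3 together (adjusted p = 0.075). The *TRM* genes, whose proteins are recruited to microtubules, were grouped after results had been seen and also split, with 3 of 9 tested higher and 2 lower (33.3% and 22.2%, against 3.75% and 4.76%). *TRM19* read 6.56, 6.23 and 6.39 log2 in the controls and 7.41, 7.15 and 7.38 with IAA (0.92 log2, adjusted p = 0.0099), and *TRM28* rose from the lowest value to 6.21, 6.41 and 6.27 (at least 1.57-fold, adjusted p = 0.0017). *TRM22* fell from 5.98, 5.87 and 5.99 log2 to the lowest value on all IAA arrays (at least 1.24-fold, adjusted p = 0.0048). Without arf2-6_control 2 and arf2-6_IAA 3 together 2 *TRM* genes rose and 1 fell, *TRM19* then having an adjusted p of 0.14.

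Further single genes that rose, picked after their values had been seen, were the dehydrin gene *LTI30*, the autophagy gene *ATG8G* and the transcription factor gene *bZIP44*. *LTI30*, otherwise known for its response to cold and drought, rose 2.97-fold from 7.19, 7.07 and 7.01 to 8.85, 8.49 and 8.63 log2 (adjusted p = 5.4e-04). *ATG8G* rose 1.88-fold from 6.86, 6.94 and 6.83 to 7.78, 7.81 and 7.78 log2 (adjusted p = 1.7e-04), and *bZIP44* rose 1.73-fold (adjusted p = 0.0024). *PSY1R*, a receptor kinase for a growth-promoting peptide that was picked in the same way, fell by 0.52 log2 (6.81, 6.74 and 6.9 to 6.28, 6.33 and 6.27, adjusted p = 0.0057). *AT3G45700*, of the nitrate efflux transporter cluster, fell at least 2.12-fold from 6.51, 6.46 and 7.31 log2 (adjusted p = 0.022). That call was lost without arf2-6_IAA 1, arf2-6_IAA 2, arf2-6_IAA 3 or arf2-6_control 3 (adjusted p up to 0.077). Its neighbour *AT3G45710* measured -0.60 log2 (adjusted p = 0.19).

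UDP-glycosyltransferases as a family stood near the background, with 1 of 24 tested higher and 2 lower, or 12.5% against 8.51%. *UGT74B1*, given above with the glucosinolate genes, was 1 of the 2, and *UGT78D1*, a flavonol rhamnosyltransferase gene, was the other (log2 -1.02, adjusted p = 0.033). *UGT78D1* was not called in 6 of the 12 fits that left out 1 array, those without arf2-6_control 1 or 2, arf2-6_IAA 2 or 3, WT_control 1 or WT_IAA 2 (adjusted p up to 0.15). *UGT87A2* rose by 0.70 log2 (adjusted p = 0.018) and lost its call without arf2-6_control 3, arf2-6_IAA 1 or arf2-6_IAA 3 (adjusted p up to 0.072). The shares of tested probe sets called higher and lower in each group of at least 4 are drawn in the plot of calls per gene group.

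**Figure D4:**
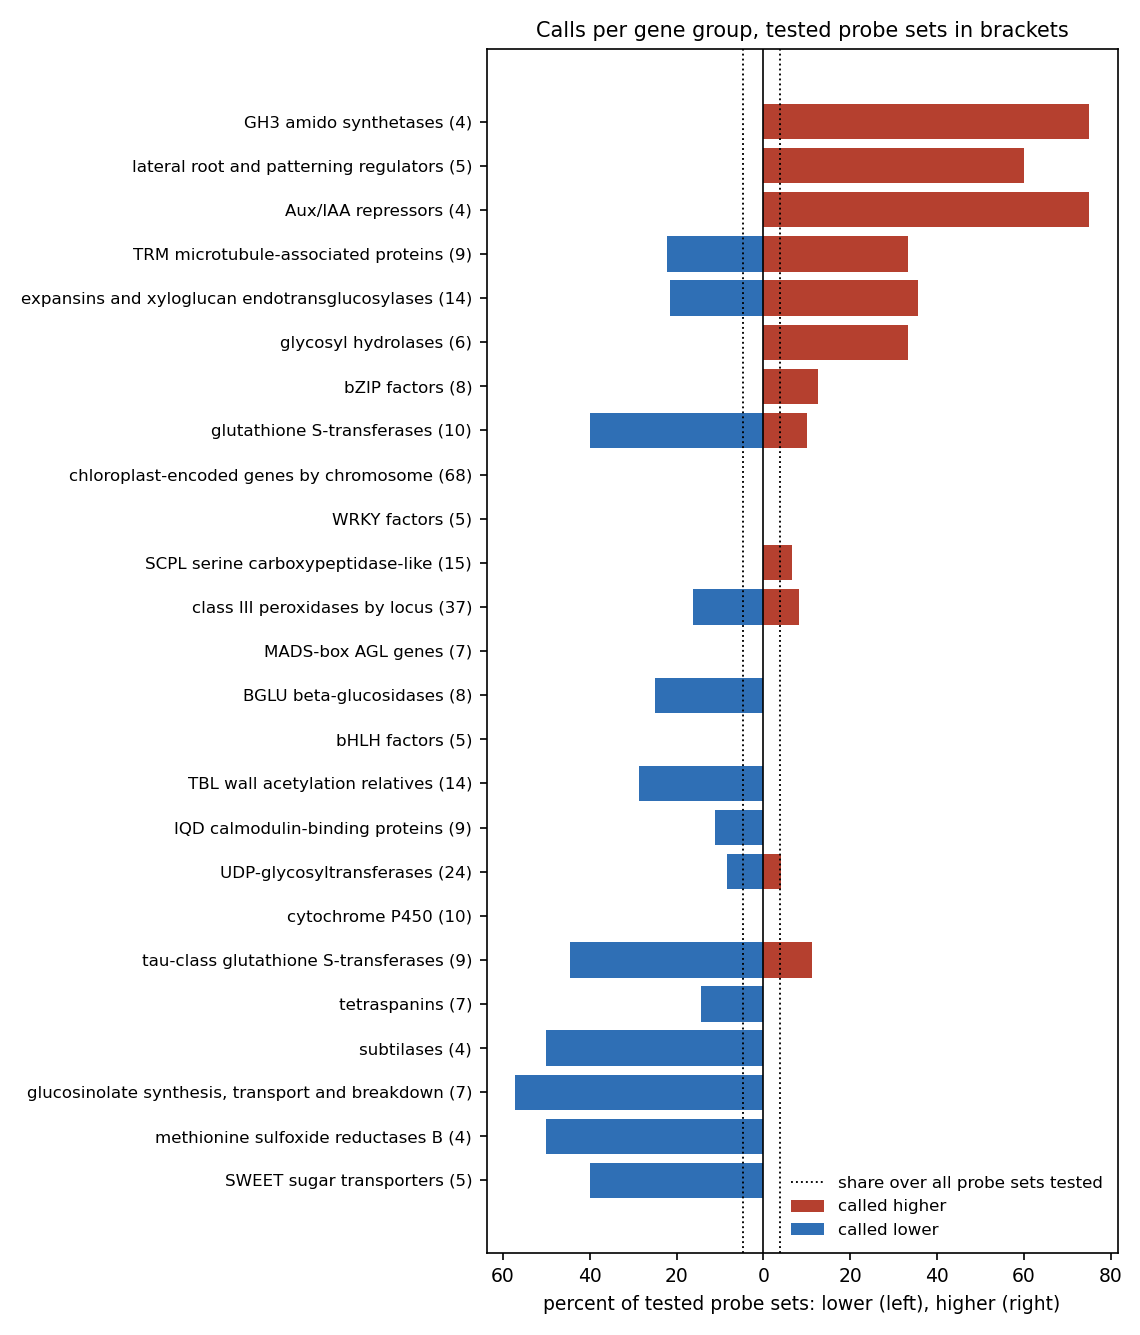
Percent of tested probe sets called higher (red, right) and lower (blue, left) with IAA in *arf2-6* for each gene group with at least 4 tested probe sets, ordered by the groups' median difference from highest to lowest. Dotted lines mark the shares over all tested probe sets, 3.75% higher and 4.76% lower, and the GH3 and Aux/IAA groups have 75% higher and 0 lower.

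In 14 of 28 listed groups with a tested probe set, limma called no member. These 14 held 42 tested entries, of which 8 had an unadjusted p under 0.05, as had 2763 of all 14215 tested probe sets. They covered gibberellin (2 tested of 17 listed genes), cytokinin (1 of 24), abscisic acid (2 of 17), and jasmonate and salicylate (3 of 17). Also among them were the cell cycle (2 of 18), the clock (1 of 15) and root triterpenes (1 of 7). The rest were cytochromes P450, jacalin-related lectins, bHLH and WRKY factors, and the leaf, root hair and reference groups. So few tested genes cannot speak for these pathways as a whole. *GID1A*, a gibberellin receptor gene, measured -0.59 log2 (adjusted p = 0.23), *STZ*, a stress zinc finger gene, 0.70 log2 (adjusted p = 0.44), and the mitotic kinase gene *AUR1* -0.27 log2 (adjusted p = 0.37). Closest to the threshold were *bHLH115* (-0.30 log2, adjusted p = 0.053) and *JAL34* (-0.43 log2, adjusted p = 0.073). The auxin receptor and ARF groups had no single-gene probe set, so neither *ARF2* nor its partners could be described and the mutated gene did not check the labels.

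No tested tissue marker was called, but only 3 of 11 leaf and 2 of 9 root hair genes were tested. The guard cell, vasculature, flower and pollen, and seed storage lists had no single-gene probe set. Leaf photosynthesis genes had high signals on all 6 arrays, *RCA* at 12.28 to 12.59 log2, *LHCB4.1* at 12.49 to 12.72 and *LHCB4.2* at 11.64 to 11.88, with differences of -0.07 to 0.10 log2. Of the root hair markers, *EXPA7* measured -0.10 log2 (adjusted p = 0.85) and *EXPA18* -0.76 log2 (adjusted p = 0.10). All 68 tested chloroplast-encoded genes were uncalled, 0 of them had an unadjusted p under 0.05, and their median was 0.02 log2. The reference genes *PEX4* and *AT4G34270* measured -0.02 and -0.13 log2. Fewer cells of a type and less RNA per cell cannot be told apart in whole seedlings. By nuclear chromosome the share of single-gene probe sets called lay between 6.95% (chromosome 5) and 8.10% (chromosome 2).

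Of the 1210 calls, 613 came from probe sets with no gene in the annotation, and 16 more from probe sets with several genes. The largest rises among those without a gene were those of 262099_s_at and 261766_at. The first lay at 5.64, 5.64 and 5.78 log2 in the controls and at 10.65, 10.75 and 11.19 with IAA, at least 36.1-fold higher (adjusted p = 4.1e-08). The second went from the lowest value on all controls to 9.45, 9.33 and 9.15 log2, at least 12.7-fold higher (adjusted p = 5.4e-09). Their counterparts among the falls were 254606_at, from 8.41, 9.0 and 8.48 to 5.91, 5.69 and 5.69 log2 (7.29-fold), and 248252_at, from 8.63, 9.21 and 9.22 to 6.85, 7.03 and 6.93 log2 (4.24-fold).

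In wild-type seedlings the same test called 1194 probe sets (8.4%). The genotypes had 808 calls in common, 66.8% of those in *arf2-6* and 67.7% of those in the wild type. Called in *arf2-6* alone were 402, of which 380 had the same sign in the wild type. The 105 of these that rose had a median of 0.60 log2 in *arf2-6* and 0.26 in the wild type, and the 297 that fell had -0.59 and -0.33. These medians were taken over probe sets chosen by their *arf2-6* call. The IAA by genotype interaction, which tests whether the response itself differs, called 16 probe sets (0.113%), 2 of them among the 402, and 520 had an unadjusted p under 0.05.

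The responses of the named genes in both genotypes are set side by side in the plot of IAA responses. *GH3.3* differed by 5.90 log2 (SE 0.32) in *arf2-6* and 5.78 (SE 0.32) in the wild type, *WES1* by 4.63 and 4.30, and *IAA29* by at least 3.6 and at least 3.65 (interaction adjusted p = 1.0 for each). *LBD29* rose by at least 2.85 log2 in *arf2-6* and at least 3.47 in the wild type (SE 0.16 for each, interaction adjusted p = 1.0). The largest measured fall of a single gene, *AT3G01190*, was -2.78 log2 in *arf2-6* and -1.92 in the wild type (interaction adjusted p = 0.67), and *AT4G39675* was -2.22 and -1.24 (interaction adjusted p = 0.43). None of these 6 differences between genotypes passed the test.

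**Figure D5:**
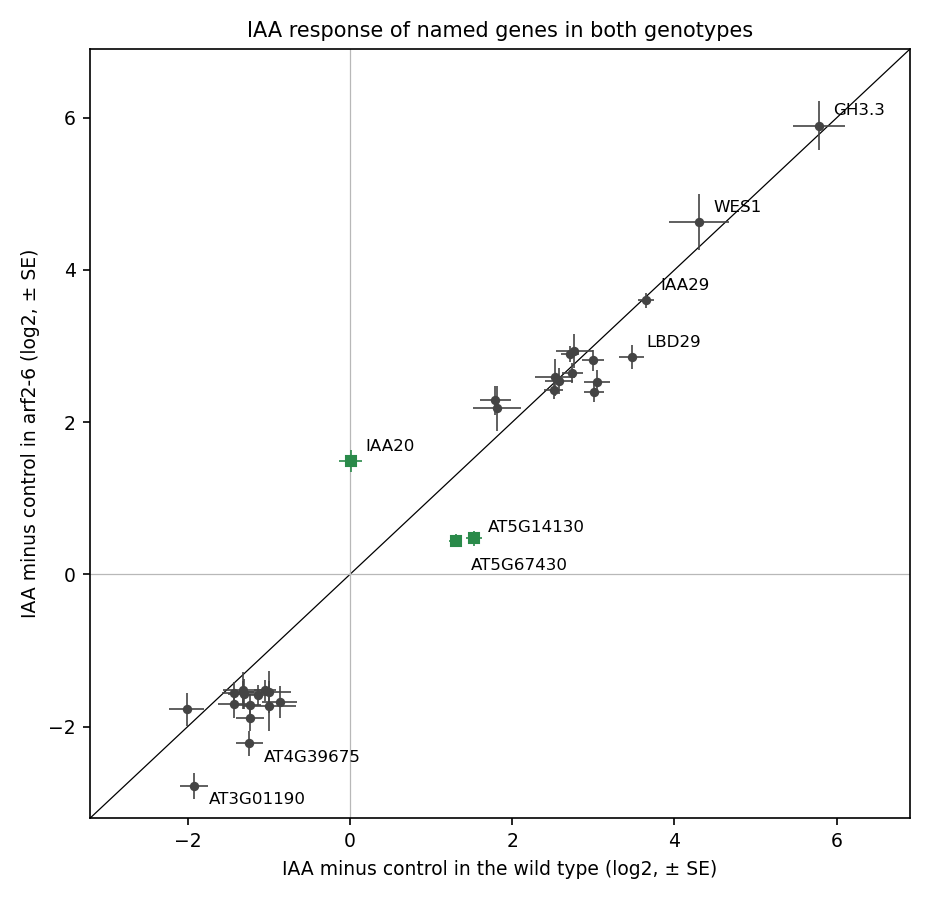
Log2 difference between IAA and control in the wild type (x axis) and *arf2-6* (y axis), each with its SE. Drawn are the 15 largest rises, the 15 largest falls and the described single genes with a called interaction (green squares). *IAA20* lies above the diagonal of equal response and *AT5G14130* and *AT5G67430* below it. Some black points lie as far from it as a square, such as *AT4G39675* (-2.22 in *arf2-6*, -1.24 in the wild type).

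The 16 called interactions included 8 described probe sets, and in 15 of the 16 every arf2-6_control array lay at the lowest value. The other 8 lay outside the described probe sets and had smaller responses in *arf2-6*. The lowest adjusted p of limma's interaction test, 8.0e-05, was that of a described probe set without a gene in the annotation. It rose from the lowest value on all controls to 6.99, 7.16 and 7.25 log2 in *arf2-6*, by at least 1.49. In the wild type it differed by 0.02 log2 (interaction 1.47 log2, SE 0.09), with all 3 controls and 2 IAA arrays at the lowest value. Whether that call holds with arrays left out was not followed. *IAA20* was the single-gene case with a larger response in *arf2-6*. Its wild-type arrays stayed at the lowest value on all 3 controls and 2 of 3 IAA arrays (log2 difference 0.01, SE 0.14), against at least 1.49 in *arf2-6*, an interaction of 1.48 log2 (SE 0.20, adjusted p = 0.028). *AT5G14130*, a class III peroxidase gene, went from the lowest value to 5.99, 6.27 and 6.08 log2 in *arf2-6* and rose by at least 1.53 log2 in the wild type (interaction -1.05, SE 0.14, adjusted p = 0.028). Its rise in *arf2-6* (at least 1.39-fold, adjusted p = 0.013) was not called without arf2-6_IAA replicate 2 (adjusted p = 0.059). *AT5G67430* reached 5.97, 6.03 and 6.26 log2 from the lowest value, at least 0.44 log2 against at least 1.3 in the wild type (interaction -0.86, SE 0.11, adjusted p = 0.028). Since most of these groups lie at the lowest value, the interaction sizes are fitted values and not exact. Leaving out 1 array at a time ended the interaction call in 9 of 12 fits for *IAA20* and in 8 of 12 for both *AT5G14130* and *AT5G67430*, with adjusted p up to 0.11 for each. Without arf2-6_control replicate 2 the adjusted p was 0.076 for all 3.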

How the data were processed

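Affymetrix ATH1 arrays were deposited as log2 signals, 1 column per array; the authors' summarisation, scaling and floor are not given in the sources used here, and no value lies below a signal of 50. Genes were taken from probe sets that the platform annotation pairs with 1 gene. Groups came from the labels. A model with 4 group means over all 12 arrays was fitted with limma 3.58.1 in R 4.3.3 (trended prior, 8 residual degrees of freedom), with two-sided tests and Benjamini-Hochberg adjustment over 14215 probe sets, and was tested on simulated data. Folds against values at the lowest value are lower bounds. The text names the 15 single genes with the largest called rises and falls, the largest called interactions, 2 probe sets without a gene in each direction, and list members. The members, the 26 lists (412 genes, 73 with a single-gene probe set) and the 18 added families were chosen with earlier results of these data known. Alternatives covered normalization, filters, variance priors, a replicate block and left-out arrays. The number of arrays limits precision. Promoter sequences were not used here.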

Additional observations from a re-analysis of the deposited data

Results flagged for a closer look

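In 3 single genes among the described probe sets the response to IAA differed between *arf2-6* and the wild type by the interaction test. The difference, *arf2-6* minus wild type on the log2 scale, was 1.4782 for *IAA20*, -1.0547 for *AT5G14130* and -0.8604 for *AT5G67430*, each with a limma adjusted p of 0.028. Another 7 single genes with a called interaction, *PUCHI* among them, lay outside the described probe sets. The *arf2-6* controls of the last 2 lay at the lowest deposited value on all 3 arrays, as did the wild-type controls of *IAA20*, so these sizes are fitted values. The calls were lost in 13, 14 and 13 of 21 alternatives, and the differences ranged from 1.34 to 1.69 for *IAA20*, from -1.17 to -0.99 for *AT5G14130* and from -0.95 to -0.80 for *AT5G67430*.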

How the results depend on the processing

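Of 106 genes and probe sets followed under up to 23 alternatives, 105 kept their direction; *GI*, which was not called, changed sign. Of 93 called, 73 kept their call throughout, 7 lost it when 1 array was left out and 17 lost it without arf2-6_control 2 and arf2-6_IAA 3 together, an alternative chosen after seeing the data. That alternative gave 602 calls, 333 higher and 269 lower, against 1210 (533 and 677), so the larger count moved from lower to higher, as it did without arf2-6_IAA 3 alone (385 and 371); fewer arrays entered that fit, and no other cause was tested. Leaving out 1 array gave 756 to 1343 calls, 385 to 558 higher and 371 to 785 lower, with 187 to 214 at least 2-fold higher and 107 to 150 at least 2-fold lower. A fit of the 6 *arf2-6* arrays alone called 993, of which 841 were among the 1210. With no filter 22746 probe sets were tested and 856 were called, 451 of them lower. Among the 11553 above the lowest value on all 12 arrays 846 were called, of which 338 were higher and 137 at least 2-fold higher. Wild-type calls numbered 1194, but 792 under that last filter, 622 from the arrays of 1 genotype and 854 to 1276 with 1 array left out. The 16 interaction calls became 3 with median centring, 2 with the filter on the 6 *arf2-6* arrays, 0 by limma with the filter on all 12 arrays (249 with an unadjusted p under 0.05), 8 with one variance prior, 5 with a robust prior, 6 without arf2-6_control 2 and WT_control 3, 6 without arf2-6_control 2 and arf2-6_IAA 3, and 2 to 46 with 1 array left out; the cause was not tested. With the replicate block 1379 were called in *arf2-6* (579 higher, 800 lower) and 1 interaction; same-numbered arrays deviated with r of 0.288, 0.031 and 0.302 in *arf2-6* and -0.085, 0.309 and 0.491 in the wild type, and not every array correlated best with its own number, so the numbers were not taken to pair arrays. A count of promoter motifs was not run. Signal near the lowest value limits both small falls and the size of rises.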
